A study of Saccharomyces cerevisiae with 9 samples.

Results

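A set of 10 genes of protein folding in the endoplasmic reticulum and of the unfolded protein response was followed on 9 expression arrays of the budding yeast Saccharomyces cerevisiae. It held KAR2, LHS1, SCJ1 and JEM1 (the Hsp70 system of the compartment), PDI1, EUG1 and ERO1 (disulfide formation), FPR2 (prolyl isomerisation), DER1 (disposal of misfolded proteins) and ULI1. The genes were taken by name, and the probe of each was found by its systematic name, so the set holds 10 of the 6947 probes of the array. All 10 had a value on all 9 arrays, no value lay at the lowest deposited ratio, and all 10 were among the 6866 probes that could be tested. The values that led to the choice are not recorded. Since all 10 lay above 0 on every non-mutator array, as did 31.8% of probes with 3 such values, the change in the non-mutator strain was taken as the measure that chose them, and it is given here as a description with no test.

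Each array set RNA of an evolved strain (Cy5) against RNA of its own ancestor (Cy3). In the mutator group the evolved strain was m8, 1 of the mutator lines of the study, after 6700 generations, and the ancestor was itself a mutator. In the non-mutator group, which served as the control, a strain that had evolved for 6700 generations without the mutator was set against the non-mutator ancestor. Cultures of 3 ml were grown to an OD600 of about 0.3 in the rich medium YPD. There were 6 mutator arrays, a first round of 3 and a repeat round with the same evolved RNA numbers, which were averaged to 3 replicates, and 3 non-mutator arrays. Each group stands for 1 evolved strain. Separate cultures are not named for the replicates, so a p-value here reflects only how far these samples lie apart, and that spread may be technical.

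The endoplasmic reticulum is where secreted and membrane proteins fold. Kar2, the Hsp70 of its lumen, binds unfolded chains with the help of J-domain proteins and nucleotide exchange factors, while Pdi1 forms disulfides and is reoxidised by Ero1. When unfolded chains build up, the membrane kinase and nuclease Ire1 cuts the HAC1 messenger RNA, the ligase Trl1 joins the ends, and the Hac1 protein made from the spliced message turns on chaperone, folding and degradation genes.

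Each value is the log2 of the ratio, evolved to ancestral, minus the median over all probes on that array. The direction is likely, from the dyes in the labels, but is not stated with the values. A ratio is a change and not a level, and changes, not levels, are compared between genes here. The spread over all probes was wider on mutator arrays (SD of log2 ratios 0.85 to 1.0) than on non-mutator arrays (0.28 to 0.30). Across probes, r between arrays was 0.729 to 0.881 among non-mutator arrays, 0.749 to 0.847 between the mutator rounds and -0.03 to 0.06 between mutator and non-mutator arrays. Markers of the a mating type were lower in both evolved strains: all 5 passed in each, with means of -4.0 to -0.89 in the mutator and -2.81 to -1.65 in the non-mutator. Of the alpha markers, SAG1 was lower in both (-0.58 and -0.50), MF(ALPHA)2 (-0.12 and -0.17) and STE3 (0.05 and 0.18) did not pass, and MF(ALPHA)1 had too few values for a test. The part of this shift in the results below was not tested. In these cultures, a smaller share of cells making a message and less message per cell cannot be told apart.

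The first comparison, in the non-mutator strain, showed all 10 genes higher than in the ancestor, from 1.18-fold to 2.13-fold. The median of the 10 means was 0.79 ± 0.05 (SD of replicate medians, n = 3), against -0.0045 over all probes tested. All 10 were past the threshold used for other probes (adjusted p under 0.05), which 10.2% of probes passed as higher. This share is given as background only, because the genes were taken as chosen on these values. Without array 2, 3 or 4 in turn, 8 of the 10 were past the threshold, and KAR2 and PDI1 were not. Over all probes, 8.79%, 5.06% and 5.12% then passed in either direction. These counts describe dependence on single arrays and support no call, because all 3 arrays were taken as part of the choice.

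In the Hsp70 system, KAR2 (YJL034W, chromosome X) was at 0.57, 0.26 and 0.30 on non-mutator arrays 2, 3 and 4, a mean of 0.37 ± 0.17 (SD, n = 3) or 1.30-fold. Array 2 was the highest for KAR2, whereas LHS1 was lowest there. LHS1 (YKL073W, chromosome XI), an Hsp70-like protein that exchanges nucleotide on Kar2, was at 0.72, 0.87 and 0.96, with a mean of 0.85 ± 0.12 (SD, n = 3) or 1.80-fold. The J-domain co-chaperone gene JEM1 (YJL073W, chromosome X) was at 0.72, 0.99 and 0.83, a mean of 0.84 ± 0.14 (SD, n = 3). SCJ1 (YMR214W, chromosome XIII), which encodes another J-domain partner of Kar2, was at 0.64, 0.56 and 0.53, a mean of 0.58 ± 0.05 (SD, n = 3). The means of the 3 helpers of Kar2 thus lay above that of KAR2 itself. The lowest SCJ1 array (0.53) lay below the highest KAR2 array, but all arrays of LHS1 and JEM1 lay above it.

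Among the disulfide genes the oxidase gene ERO1 (YML130C, chromosome XIII) stood at 0.93, 1.15 and 1.09 on arrays 2, 3 and 4, a mean of 1.06 ± 0.12 (SD, n = 3) or 2.08-fold. EUG1 (YDR518W, chromosome IV), a paralogue of PDI1, was at 0.78, 0.72 and 0.71, with a mean of 0.74 ± 0.04 (SD, n = 3). PDI1 (YCL043C, chromosome III) had the smallest change of the set, 0.26, 0.16 and 0.29, a mean of 0.24 ± 0.07 (SD, n = 3) or 1.18-fold. The 3 genes did not overlap with each other on these arrays. PDI1 was 806th from the top of 6866 probes, while ERO1 was 10th.

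FPR2 (YDR519W, chromosome IV), an FK506-binding prolyl isomerase of the secretory pathway, was at 0.57, 0.75 and 0.68, a mean of 0.67 ± 0.09 (SD, n = 3). DER1 (YBR201W, chromosome II), a membrane protein through which misfolded luminal proteins leave for degradation, was at 0.97, 1.13 and 1.02, a mean of 1.04 ± 0.08 (SD, n = 3) or 2.06-fold. ULI1 (YFR026C, chromosome VI), known as a gene induced by the unfolded protein response, had the highest mean of the set, with 1.07, 1.17 and 1.02, or 1.09 ± 0.08 (SD, n = 3). It ranked 8th and DER1 12th of all probes tested. By mean the order was ULI1, ERO1, DER1, LHS1, JEM1, EUG1, FPR2, SCJ1, KAR2 and PDI1. In 8 of the 9 neighbouring pairs of that order the array values overlapped, and only the step from DER1 to LHS1 separated them (lowest DER1 array 0.97, highest LHS1 array 0.96).

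**Figure D1:**
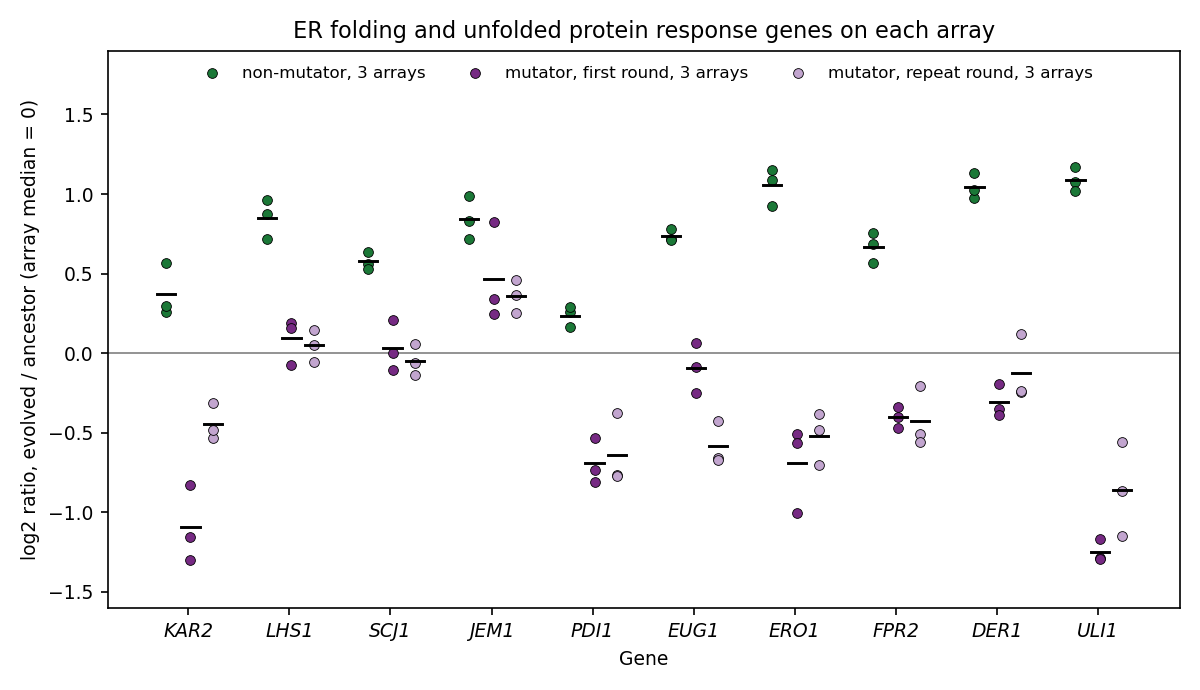
Log2 ratio of the evolved strain over its ancestor (vertical axis, 0 is the array median) for the 10 genes on each of 9 arrays. Points are arrays and black bars are means. All non-mutator points lie above 0, and in all genes except JEM1 they lie above all 6 mutator points.

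The second comparison, in the mutator line, gave a different picture: 7 of the 10 genes fell, JEM1 rose, and LHS1 and SCJ1 did not pass (limma, adjusted p under 0.05). The 10 genes were chosen with earlier results of these data known, so their mutator values may have been in view too. Their adjusted p-values in the mutator therefore describe the values and are not independent tests. Over all probes tested 37.8% passed as lower and 37.3% as higher, so most probes changed in this strain. The median of the 10 means was -0.38 ± 0.07 (SD of replicate medians, n = 3), against 0.02 over all probes. The first-round and repeat arrays were also fitted apart. In the first round 6 genes passed as lower and 1 as higher, where 36.3% and 35.4% of all probes did. In the repeat 6 passed as lower and 1 as higher, where 34.8% and 34.2% of all probes did.

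ULI1 fell furthest. It was at -1.28, -1.17 and -1.29 on first-round arrays 1, 2 and 3 and at -1.15, -0.87 and -0.56 on their repeats, a mean of -1.05 ± 0.15 (SD, n = 3) or 2.08-fold lower (limma, adjusted p = 1.9e-05). All first-round values lay below all repeat values. KAR2 fell to -0.77 ± 0.10 (SD, n = 3), 1.70-fold lower (limma, adjusted p = 0.00014), but its size differed between rounds. Its first-round arrays gave -1.30, -1.16 and -0.83, and its repeats -0.31, -0.53 and -0.48, so the rounds did not overlap and their means were -1.10 and -0.44. The call held in each round (limma, adjusted p = 0.00013 and 0.0035). Each replicate averages 1 array of each round, so the SD and p of ULI1 and KAR2 over both rounds leave out these differences between rounds.

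PDI1 was at -0.81, -0.73 and -0.53 in the first round and -0.38, -0.76 and -0.77 in the repeat, a mean of -0.66 ± 0.08 (SD, n = 3) or 1.59-fold lower (limma, adjusted p = 4.5e-05). Here the rounds overlapped. ERO1 was at -1.01, -0.51 and -0.57 and at -0.70, -0.38 and -0.48, a mean of -0.61 ± 0.22 (SD, n = 3) or 1.52-fold lower (limma, adjusted p = 0.00096). FPR2 was at -0.40, -0.34 and -0.47 and at -0.51, -0.21 and -0.56, a mean of -0.41 ± 0.13 (SD, n = 3), with an adjusted p of 0.0012 in limma. KAR2, PDI1, ERO1, FPR2 and ULI1 were below 0 on all 6 mutator arrays and above 0 on all 3 non-mutator arrays, a pattern of 12.4% of probes with 9 values.

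The fall of EUG1 rested on the repeat arrays. It was at 0.06, -0.25 and -0.09 in the first round and at -0.66, -0.43 and -0.67 in the repeat, a mean of -0.34 ± 0.04 (SD, n = 3) with an adjusted p of 0.00044 in limma. The first round alone did not pass (limma, adjusted p = 0.27), and its values lay above all repeat values. Averaging 1 array of each round into a replicate removes that difference from the SD. DER1 was at -0.35, -0.39 and -0.19 in the first round and -0.25, 0.12 and -0.24 in the repeat, a mean of -0.22 ± 0.08 (SD, n = 3) with an adjusted p of 0.0098 in limma. The repeat arrays alone did not pass for it (limma, adjusted p = 0.25), nor did a fit without centring (-0.11, limma, adjusted p = 0.091).

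Of the partners of Kar2, JEM1 rose. It was at 0.82, 0.34 and 0.24 in the first round and at 0.37, 0.25 and 0.46 in the repeat, a mean of 0.41 ± 0.16 (SD, n = 3) or 1.33-fold higher (limma, adjusted p = 0.0031). LHS1 was at 0.19, 0.16 and -0.08 and at -0.05, 0.15 and 0.05, with a mean of 0.07 ± 0.08 (SD, n = 3, limma, adjusted p = 0.33). SCJ1 was at 0.21, -0.11 and 0.00 and at -0.14, 0.06 and -0.06, with a mean of -0.01 ± 0.04 (SD, n = 3, limma, adjusted p = 0.89). LHS1 and SCJ1 had arrays on both sides of 0 in each round. The 4 Hsp70 genes thus ranged from a fall of KAR2 to a rise of JEM1 in the same RNA. The highest KAR2 array (-0.31) lay below the lowest array of each of the other 3.

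Set side by side, the strains differed most in ULI1, with a difference of means (mutator minus non-mutator) of -2.14, and in ERO1 (-1.66), DER1 (-1.26) and KAR2 (-1.14). That difference was -1.08 for FPR2, -1.07 for EUG1, -0.90 for PDI1, -0.78 for LHS1, -0.58 for SCJ1 and -0.43 for JEM1. These differences hold the non-mutator values that were taken as the basis of the choice, so no test is given. All 10 were past the threshold as lower, with 30.9% of all probes past it as lower, 33.0% as higher and 63.9% in either direction, and nothing is read from that count. In 9 of the 10 genes all 6 mutator arrays lay below all 3 non-mutator arrays, as in 28.3% of probes with 9 values. The exception was JEM1, whose first-round array 1 (0.82) lay above its lowest non-mutator array (0.72). The order of the genes in one strain did not follow that in the other: over the 10 genes Pearson's r between the means was 0.09 and Spearman's rho 0.04, a description over genes that share all arrays of a strain. Of the 10 genes, 7 were higher in the non-mutator and lower in the mutator by the threshold, which is 70%. Of all 698 probes past it as higher in the non-mutator, 418 (59.9%) were also past it as lower in the mutator, so this combination was common in the data.

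**Figure D2:**
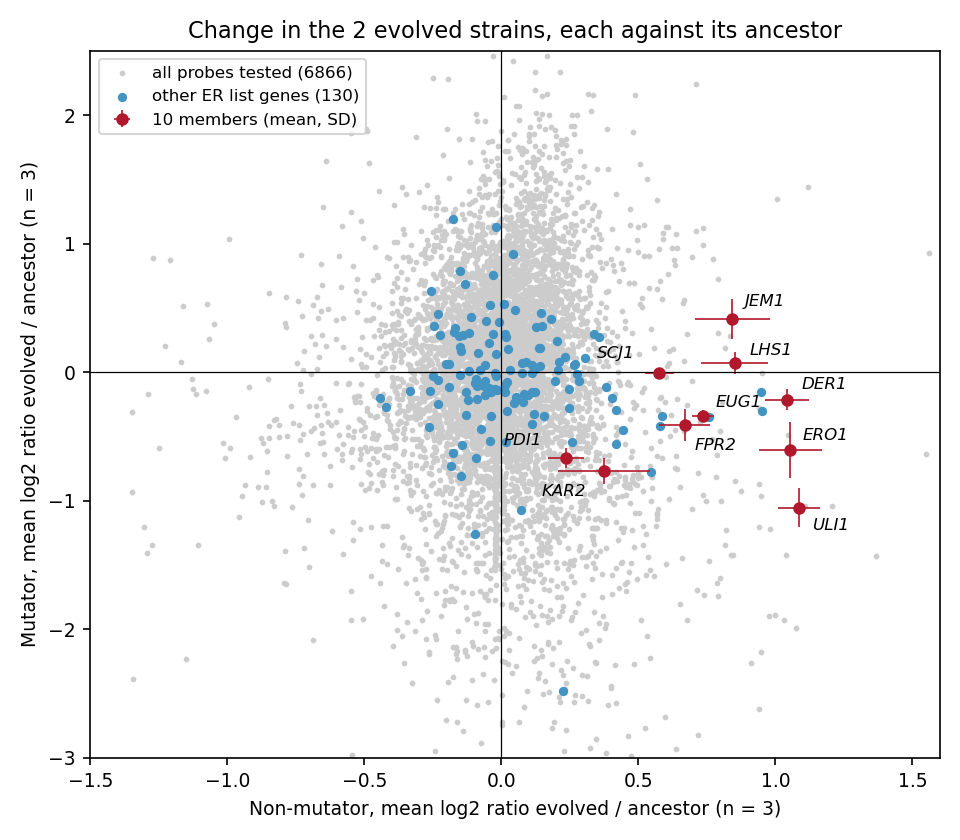
Mean log2 ratio in the non-mutator (horizontal axis) against that in the mutator (vertical axis), each evolved strain over its ancestor, n = 3 replicates each. Red points with SD bars are the 10 genes, blue points the 130 other genes of the 8 endoplasmic reticulum lists and grey points all probes tested, of which 78 lie outside the axes. The 10 genes lie to the right of 0 and spread from -1.05 to 0.41 on the vertical axis.

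Other genes of the pathway were read from 8 lists made from general knowledge: folding helpers, signalling, degradation, translocation, N-glycosylation, O-mannosylation, GPI anchoring and export in COPII vesicles. These lists were chosen with earlier results of these data known. Of their 130 genes, 23 rose and 16 fell in the non-mutator (21.2% of all probes passed in either direction), with a median of -0.0014. In the mutator 37 rose and 49 fell, with a median of -0.07, where 75.1% of all probes passed. By direction, 37.3% of all probes passed as higher and 37.8% as lower in the mutator, and 10.2% and 11.1% in the non-mutator. These shares are the background for the counts of each list below, and nothing is read from a count near them. The non-mutator count depended on single arrays: in place of 39 genes, 12, 10 and 8 passed without array 2, 3 or 4. Genes are named below by p, up to 4 per list and strain. Of the named non-mutator calls, 9 of 30 held without each of the 3 arrays in turn: SIL1, ERJ5, MPD1, HRD3, DFM1, CWH41, MCD4, ERV29 and SSE2. Of the 54 named mutator calls, 47 held without each mutator replicate in turn, and those of SIL1, DSK2, ALG12, PMT1, PMT5, ERP1 and MGE1 did not. In each round alone 41 held, with MPD1, SEC62, OST2, GPI10, MCD4 and HSP60 lost besides those 7, and 35 held under every alternative. Between the first-round and the repeat arrays the number of genes that passed as lower went from 8 to 14 in N-glycosylation, from 4 to 7 in GPI anchoring and from 12 to 5 among the cytosolic chaperones described last.

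Of 11 folding helpers, 3 rose and 0 fell in the non-mutator (median 0.11), while 10.2% of all probes passed as higher and 11.1% as lower. In limma 6 of the 11 had an unadjusted p under 0.05. SIL1, the second nucleotide exchange factor of Kar2, was at 0.95 ± 0.05 (SD, n = 3), close to LHS1, with an adjusted p of 0.00021 in limma. MPD1, a further member of the Pdi1 family, was at 0.76 ± 0.13 (limma, adjusted p = 0.00079), and the J-domain gene ERJ5 at 0.44 ± 0.08 (limma, adjusted p = 0.0036). In the mutator 8 of the 11 fell and 1 rose (median -0.34). EPS1 (-0.81), ERJ5 (-0.45), the cyclophilin gene CPR5 (-0.44) and the thiol oxidase gene ERV2 (-0.40) had the smallest p. MPD1 (-0.35) and SIL1 (-0.16) also fell, so each of the 3 helpers that rose in the non-mutator fell in the mutator. The fall of SIL1 did not pass on first-round arrays alone (limma, adjusted p = 0.52), nor that of MPD1 on repeat arrays alone (limma, adjusted p = 0.062). Of all probes higher in the non-mutator, 59.9% were also lower in the mutator, so nothing is read from this combination.

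Of the 6 signalling genes 0 rose and 1 fell in the non-mutator (median -0.05), with 10.2% and 11.1% of all probes past the threshold in these directions. IRE1 fell there to -0.22 ± 0.11 (SD, n = 3, limma, adjusted p = 0.036), a call lost without any 1 of the 3 arrays (-0.27 to -0.16, limma, adjusted p = 0.061 to 0.19), and HAC1 stood at -0.10 ± 0.09 (limma, adjusted p = 0.44). In limma 1 of the 6, IRE1, had an unadjusted p under 0.05. In the mutator HAC1 fell to -1.26 ± 0.19 (SD, n = 3, limma, adjusted p = 1.8e-05), with arrays from -1.45 to -0.76. IRE1 rose by 0.29 ± 0.05 (limma, adjusted p = 0.0032), and the ligase gene TRL1 by 1.13 ± 0.03 (limma, adjusted p = 6.8e-06). GCN4, the activator of amino acid synthesis genes, fell to -0.34 ± 0.08 (limma, adjusted p = 0.00063). The HAC1 probe gives 1 ratio, so spliced and unspliced message were not separated.

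In degradation, 3 of 18 genes rose and 4 fell in the non-mutator (median 0.03). DFM1, the paralogue of DER1, was at 0.55 ± 0.03 (SD, n = 3, limma, adjusted p = 0.00079), and HRD3, the partner of the ubiquitin ligase Hrd1, fell to -0.44 ± 0.06 (limma, adjusted p = 0.0025). DSK2 (-0.33), which shuttles ubiquitinated proteins, and CDC48 (-0.26), the ATPase that pulls them from the membrane, also fell. In the mutator 10 fell and 2 rose (median -0.16). DFM1 fell there to -0.78, UFD1, a cofactor of Cdc48, to -0.54 and CDC48 to -0.43, whereas the ubiquitin ligase gene SSM4 rose by 0.45. DER1 and DFM1 thus changed in the same directions, with DER1 at 1.04 and -0.22.

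In translocation 11 of 23 genes rose and 2 fell in the mutator (median 0.11 ± 0.08, SD of replicate medians, n = 3), where 37.3% and 37.8% of all probes did. The signal recognition particle genes SRP68 (0.79), SRP72 (0.76) and SEC65 (0.46) and the signal peptidase gene SPC1 (0.63) led by p. In the non-mutator 2 rose, SEC62 (0.34) and SBH1 (0.31), and 2 fell, SPC1 (-0.26) and a gene of the signal recognition particle receptor (-0.17).

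In N-glycosylation 5 of 29 genes rose and 4 fell in the non-mutator (median -0.06), led by the mannosyltransferase gene ALG12 (0.40), the oligosaccharyltransferase subunit gene OST2 (0.36) and DPM1 (0.26), which makes dolichol phosphate mannose, among the higher and the glucosidase gene CWH41 (-0.42) among the lower. In the mutator 6 rose and 13 fell (median -0.08), with the glucosyltransferase genes ALG10 (-0.73) and ALG8 (-0.67) and DPM1 (-0.54) lower. Of 6 O-mannosyltransferase genes, PMT3 rose (0.42) and PMT6 fell (-0.23) in the non-mutator, and in the mutator PMT4 (-0.63), PMT3 (-0.56) and PMT1 (-0.23) fell and PMT5 (0.19) rose. In GPI anchoring 2 of 19 genes rose and 2 fell in the non-mutator. MCD4, which adds ethanolamine phosphate to the anchor, was at 0.95 ± 0.12 (SD, n = 3, limma, adjusted p = 0.00046), and GWT1 (0.42), GPI16 (-0.25) and GPI10 (-0.25) were the others. In the mutator 7 rose and 7 fell, where 37.3% and 37.8% of all probes did. The named genes ran from the mannosyltransferase gene GPI14 at -2.48 and the deacetylase gene GPI12 at -1.07 to GPI13 at 0.49 and the remodelling gene BST1 at 1.19.

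In COPII export 7 of 18 genes rose and 2 fell in the non-mutator (median 0.11). The cargo receptor gene ERV29 (0.59), ERP2 (0.27), ERP1 (0.25) and the coat gene SFB2 (0.25) led by p. In the mutator 7 rose and 4 fell (median 0.04), with SFB3 (0.42), the GTPase gene SAR1 (0.39) and its exchange factor gene SEC12 (0.35) higher and ERV29 (-0.34) lower.

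Chaperones of other compartments were set beside the 10 genes. Of 15 cytosolic chaperone genes 1 rose and 0 fell in the non-mutator (median -0.02), the Hsp110 gene SSE2 at 0.60, and in limma 4 of the 15 had an unadjusted p under 0.05. SSA1, SSA2, HSP82 and HSC82 had nearly the same non-mutator values, with means of -0.0217 to -0.0212. Probes such as CDC19, HTB2 and RPS8A shared that mean (-0.0218 to -0.0214), and the list median (-0.0217) lay there too. Such ratios may not measure each gene's own change, and the cause was not tested. The non-mutator median of this list is thus a weak reference. The 10 endoplasmic reticulum genes had a median of 0.79 there, but they were taken as chosen on these values, so nothing is read from that contrast. The 11 folding helpers outside the set had a median of 0.11, and the 130 genes of the 8 lists one of -0.0014. Of 6 mitochondrial chaperone genes 0 passed there in limma and 1, MGE1 (0.15), had an unadjusted p under 0.05 (median -0.0032). In the mutator 10 of the cytosolic genes fell and 2 rose (median -0.37, and -0.61 on first-round against -0.12 on repeat arrays), among them the disaggregase gene HSP104 at -3.04, SSE2 at -2.68, the J-domain gene SIS1 at -1.07 and STI1, whose product links Hsp70 and Hsp90, at -0.79. The falls of SSA1, SSA2, HSP82, HSC82 and FES1 did not pass on the repeat arrays alone. The median of the 10 endoplasmic reticulum genes there was -0.38, and by round -0.36 and -0.43. Of the mitochondrial genes 3 fell, HSP60 (-0.44), MDJ1 (-0.41) and ECM10 (-0.58, with a replicate SD of 0.53), and MGE1 rose (0.20). HSP60 stood at -0.81 over first-round arrays but at -0.07 over the repeats, which alone did not pass.

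**Figure D3:**
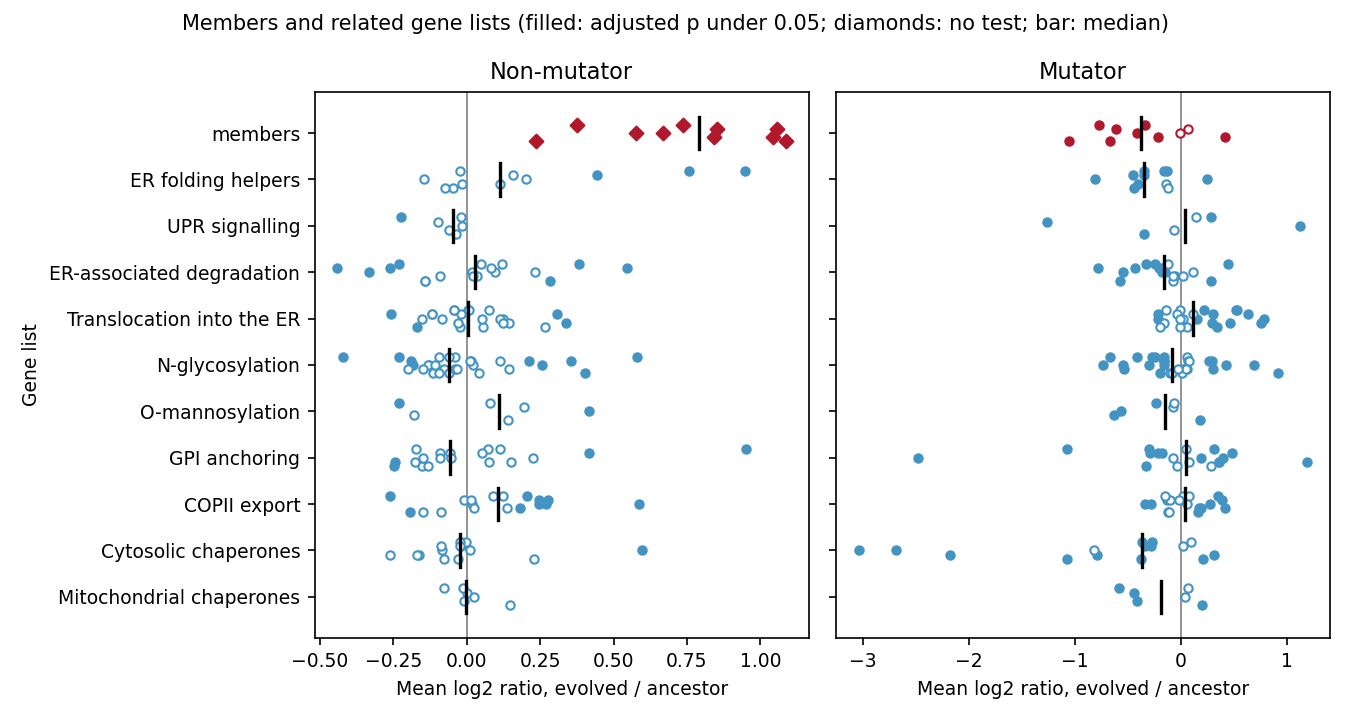
Mean log2 ratio (horizontal axis, with a different scale in each panel) of the genes of each list in the non-mutator and the mutator, n = 3 replicates. Filled circles passed at an adjusted p under 0.05, open circles did not, diamonds were given no test, and black bars are medians. The 10 genes have a median of 0.79 in the non-mutator and -0.38 in the mutator.

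Across the 9 arrays, the 5 probes with reference symbols whose ratios followed KAR2 most closely were those of SLT2, ISF1, CIT1, GYP7 and YEL073C, with Pearson's r of 0.981 to 0.988. All were lower in the mutator (-2.21 to -0.89) and stood at -0.24 to -0.0018 in the non-mutator. Among 5469 such probes the nearest of the 10 genes were ULI1 (r = 0.906, rank 342) and PDI1 (r = 0.904, rank 353), and the farthest were EUG1 (0.631) and JEM1 (0.484). These points share arrays and fall into 1 set per strain and 1 per round.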

How the data were processed

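The deposited table holds a linear ratio per probe and array. By the labels, evolved RNA carried Cy5 and ancestral RNA Cy3. The ratio was read as Cy5 over Cy3, a likely reading that the labels alone do not settle. Array medians of 1.00 to 1.07 point to scaling before deposition; how this was done, and the background correction and genome build, is not given in the sources used here. Signal intensities were not analysed. No dyes were swapped.

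Ratios at the lowest value, 0.01 (tolerance 1e-04), were set to missing. The log2 of the others was centred on each array's median, and arrays of 1 RNA number were averaged (the repeat of number 2 used ancestor RNA 1). Ancestor RNA 1 thus entered mutator replicates 1 and 2, which are not fully independent, although each is counted in n = 3. The effect of this on the spread was not tested. Probes with at least 2 replicates per group were tested (6866, with 81 left out) with lmFit and eBayes of limma 3.58.1 under R 4.3.3, two-sided, on a model of group means (4 residual degrees of freedom), and Benjamini-Hochberg adjustment over all probes. Symbols and chromosomes come from the R64 reference table (5840 probes matched); since no build is named for the array, no coordinates are given. Figures were drawn with matplotlib 3.10.9.

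The 10 genes and the 10 further lists (151 genes, all with a probe) were chosen with earlier results of these data known. The plan had tests of the 10 genes in the non-mutator and none in the mutator; this was turned round once their values were seen. Named list genes are up to 4 per list and strain with the smallest p among those that passed, besides IRE1 and HAC1. Some results are not reported here. On simulated data with these sample sizes and spreads, 73.7% of non-mutator changes of 0.5 (log2) and 85.9% of changes of 1 were recovered. For mutator changes these shares were 81.8% and 87.9%. Each size was given to 99 of the 6866 simulated probes. Unchanged probes were called too: only 6 for non-mutator changes, but 95 for mutator changes and 42 for the difference. The latter counts exceed what a threshold of 0.05 should let through, so mutator and difference calls may hold more false ones than it implies. The simulation changed far fewer probes than the 75.1% called in the mutator and held no difference between rounds. It also took the measured spreads as the true ones. The share of false calls among the real ones therefore cannot be read from it. Alternatives changed centring, scaling, replicates, blocks, rounds, filters, thresholds, moderation and weights.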

Additional observations from a re-analysis of the deposited data

Results flagged for a closer look

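KAR2 (-1.14), PDI1 (-0.90), ERO1 (-1.66), FPR2 (-1.08) and ULI1 (-2.14) were below 0 on every mutator array and above 0 on every non-mutator array, values being mutator minus non-mutator. No test of the difference is given for these genes, since it holds the non-mutator values taken as the basis of their choice.

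Among the named list genes, some passed in both strains with opposite signs (limma, adjusted p under 0.05). Their difference also passed, which the opposite signs largely fix in advance. The mutator minus non-mutator difference was -1.10 for SIL1, -0.89 for ERJ5, -1.10 for MPD1, -1.32 for DFM1, -0.60 for ALG12, -0.80 for DPM1, -0.98 for PMT3, -1.25 for MCD4, -0.71 for GWT1, -0.53 for SFB2, -0.93 for ERV29, -0.38 for ERP1 and -3.28 for SSE2. It was above 0 for IRE1 (0.51), SSM4 (0.68), a gene of the signal recognition particle receptor (0.51), SPC1 (0.89) and GPI10 (0.61).

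By Dixon's gap test at its 95% critical value, which by construction marks about 1 in 20 groups by chance, single arrays stood apart from the other 5 mutator arrays in 5 of 68 genes. JEM1 was at 0.82 on first-round array 1 (others 0.24 to 0.46), HAC1 at -0.76 on the repeat of array 1 (others -1.45 to -1.28), ALG10 at -0.37 on first-round array 1 (others -0.89 to -0.70), ERP1 at -0.34 on first-round array 1 (others -0.13 to -0.04) and ECM10 at -1.92 on the repeat of array 1 (others -0.56 to -0.11).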

How the results depend on the processing

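Across 20 alternatives, each run where it applied, 6 or 7 of the 10 genes were past the threshold as lower in the mutator. In the non-mutator 8 to 10 were past it as higher. ULI1, KAR2, PDI1, ERO1, FPR2 and JEM1 kept direction and call in the mutator in all 19 that could be run there. All alternatives refit the same arrays for genes chosen with results of these data known. In both strains they describe only how far the values depend on processing, and they give no independent support. DER1 lost its call without centring (-0.11), with arrays scaled to 1 median absolute deviation (-0.14) and on repeat arrays (-0.12), and EUG1 on first-round arrays (-0.09). LHS1 passed without centring (0.17). SCJ1, which did not pass, turned above 0 without centring (0.095), on first-round arrays (0.034) and with floor ratios kept (0.0045), and ranged from -0.027 to 0.0049 with a replicate left out.

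The 39 list genes past the threshold in the non-mutator became 80 with scaled arrays, 77 with array weights (chosen after seeing the data), 9 with 6 mutator arrays as replicates, 8 with the RNA number and 8 with the round as a random block, 22 on first-round and 23 on repeat mutator arrays, 13 at an adjusted p under 0.01, and 8 to 46 with a replicate left out. The 86 in the mutator became 44 with scaled arrays. Over all probes, non-mutator calls went from 1457 to 293 with the round as a random block, 2481 with each group fitted alone and 3455 with scaled arrays; the cause was not tested. The groups share replicate numbers 2 and 3 only by label (r of deviations -0.04 and 0.02). With that number as a replicate block, 45 list genes passed in the difference instead of 75. The number of arrays, and signal intensities not analysed here, limit the precision.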

Other observations

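Neighbours of the 10 genes on the chromosome, taken by gene order in the R64 reference after values were seen, were read for 16 genes outside the set. In the non-mutator 6 passed as higher and 1 as lower, with a median of 0.09, against 10.2% and 11.1% of all probes. MGR1, next to PDI1, was at 0.80 ± 0.09 (SD, n = 3) with a mean above that of PDI1, and TAD2, next to KAR2, was at 0.59 ± 0.03 with a mean above that of KAR2. MUD2, next to LHS1, was at 0.63 ± 0.07, SMC3 and PSF2, on the sides of JEM1, at 0.50 and 0.26, and URC2, next to FPR2, at 0.38. EUG1 and FPR2 are neighbours of each other. HIS2, next to ULI1, was at -0.25. In the mutator 4 of the 16 passed as higher and 6 as lower (median 0.02), against 37.3% and 37.8% of all probes. TAD2 (1.08), SMC3 (0.93), URC2 (0.50) and CEF1 (0.16), next to SCJ1, rose. YCL042W, on the other side of PDI1 (-3.67), both neighbours of ERO1, YML131W (-0.73) and COX14 (-0.59), HIS2 (-0.70), GRH1, next to EUG1 (-0.62), and MGR1 (-0.46) fell.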
